A study of Saccharomyces cerevisiae with 4 samples.

Results

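*SPS1*, *SMK1*, *SSP2* and *CAK1* encode a pair of sporulation kinases, Sps1 and Smk1, and the proteins Ssp2 and Cak1 that switch Smk1 on. The entries with these 4 gene names were taken from the 6549 entries of every library, and all 4 were present and passed the filter on low values, a mean of at least 10 RPKM (reads scaled to the length of the ORF and the depth of its library) over the libraries. The libraries came from diploid MATa/MATalpha budding yeast (*Saccharomyces cerevisiae*) of the SK1 background, collected 4 h after transfer to sporulation (SPO) medium, an acetate medium that induces meiosis. The mutant strain was *dbp1Δ::kanMX6/dbp1Δ::kanMX6*, in which a G418-resistance cassette stands in for the *DBP1* ORF on both chromosomes, and the other strain was wild type at *DBP1*. Both strains also carried *trp1::hisG*, *his3::hisG*, *leu2::hisG*, *ura3*, *lys2* and *ho::LYS2*, and both cultures received cycloheximide, which holds ribosomes on mRNA, for 1 min before harvest. From each strain 1 library of ribosome footprints (FP, the mRNA stretches that ribosomes shield from nuclease) and 1 library of mRNA fragments were sequenced. No value therefore has a replicate, no difference between the strains was tested, and the 95% intervals given cover the counting error of these libraries only.

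During sporulation the haploid nuclei are each enclosed by a new prospore membrane, on which the layers of the spore wall are then laid down. Smk1 is a MAP kinase of this late step that works without a MAP kinase kinase. Cak1, a kinase that also activates cyclin-dependent kinases in growing cells, phosphorylates the threonine of the Smk1 activation loop, and Ssp2, made only in meiosis, then triggers Smk1 to phosphorylate a nearby tyrosine itself. Sps1, a kinase of the Ste20 family found at the prospore membrane, is needed for closure of that membrane and for proper placement of wall-building enzymes. *SPS1*, *SMK1* and *SSP2* are known as targets of the transcription factor Ndt80, and translation of *SSP2* is known to lag behind its mRNA. Dbp1, the deleted protein, is an RNA helicase related to the translation initiation factor Ded1, so the comparison asks how mRNA and ribosome occupancy of these genes differ in meiotic cells without it.

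The libraries held an inferred 2215000 to 4765000 mapped reads. *DBP1* itself had 6.9 RPKM of footprints in *dbp1Δ::kanMX6* cells against 435.2 RPKM in wild type, and 2.9 RPKM of mRNA against 131.5 RPKM. *MRP51*, the gene beside the cassette, had 15.1-fold lower translation efficiency (FP RPKM over mRNA RPKM, TE) in *dbp1Δ::kanMX6* cells, with an interval of 9.20 to 24.7. Loss of *DBP1* and altered *MRP51* therefore cannot be told apart in these libraries. The paper reports a sporulation defect of *dbp1Δ::kanMX6* cells, which Mrp51 made from another locus reversed and Dbp1 made there did not. The 9 meiotic entry and prophase genes checked were all expressed, with summed footprints of 11090 RPKM in *dbp1Δ::kanMX6* cells and 8435.4 RPKM in wild type, and 0 of the 9 differed by 2-fold or more in either assay. The mating receptor gene *STE2*, repressed in MATa/MATalpha diploids, had 1.2 RPKM of footprints in *dbp1Δ::kanMX6* cells and 1.7 RPKM in wild type. Its mRNA was 26.0 and 18.7 RPKM in the same order. Of the 7 mating genes that passed the filter, 3 had lower footprints in the deletion, 1 of them at least 2-fold lower. Another 2, *STE3* and *MFA2*, had footprints at least 2-fold higher, *MFA2* on an inferred 6 and 1 reads. All 8 haploid mating genes together summed to 283.90 RPKM in *dbp1Δ::kanMX6* cells and 624.90 RPKM in wild type, of which *STE18* alone gave 149.2 and 516.9 RPKM in the same order. The G1 cyclin genes *CLN1* and *CLN2* of mitotic cells did not pass the filter, with footprints of at most 3.4 RPKM in *dbp1Δ::kanMX6* cells and 1.8 RPKM in wild type. The part of these marker genes in the differences of the kinase genes was not tested.

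*SPS1* (YDR523C, chromosome IV) had the fewest footprints of the 4 genes in the deletion. Its footprints were 14.1 RPKM (11.0 to 17.9) in *dbp1Δ::kanMX6* cells and 457.7 RPKM (441 to 475) in wild type, an inferred 68 and 2778 reads. The mutant value stands above the floor of 3 reads, which is 0.624 RPKM for this ORF in that library. The deleted *DBP1* ORF, however, still gave 6.9 RPKM there, an inferred 42 reads. How much of the 14.1 RPKM is such background was not tested, and the intervals below do not cover it. Other ORFs gave less in that library, such as *STE2* at 1.2 RPKM, so 6.9 RPKM is not a floor for every ORF. *SPS1* mRNA was 389.2 RPKM (375 to 404) in *dbp1Δ::kanMX6* cells and 1451.8 RPKM (1411 to 1494) in wild type. The mRNA was abundant in the deletion too, above 89.8% of the 5552 entries that passed the filter, whereas the footprints stood above only 16.0% of them. In wild type *SPS1* lay above 98.4% of entries for mRNA and 92.2% for footprints. Footprints were 32.5-fold lower in *dbp1Δ::kanMX6* cells (25.5 to 41.8) and mRNA was 3.73-fold lower (3.56 to 3.91). TE was 0.0362 in *dbp1Δ::kanMX6* cells and 0.315 in wild type, 8.70-fold lower (6.81 to 11.1). On the log2 scale, 62.2% of the footprint difference lay in TE and the rest in mRNA. *SPS1* ranked 12 of 5453 entries from the largest footprint decrease and 11 of 5452 from the largest TE decrease, but 53 of 5551 for mRNA. These RPKM come from bulk cultures, in which fewer cells expressing a gene and less RNA per cell cannot be told apart.

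*SMK1* (YPR054W, chromosome XVI), the MAP kinase, had the highest footprint level of the 4 genes in the deletion. It had 180.8 RPKM of footprints (168 to 195) in *dbp1Δ::kanMX6* cells and 462.4 RPKM (443 to 482) in wild type. Its mRNA was 261.4 RPKM (248 to 275) in *dbp1Δ::kanMX6* cells and 446.5 RPKM (421 to 473) in wild type. Both assays were lower in the deletion, footprints 2.56-fold (2.35 to 2.79) and mRNA 1.71-fold (1.58 to 1.85). TE was 0.692 in *dbp1Δ::kanMX6* cells and 1.04 in wild type, 1.50-fold lower (1.33 to 1.68). These differences were less extreme than those of *SPS1*, at rank 261 for footprints, 349 for mRNA and 994 for TE from the largest decrease. In TE, *SMK1* exceeded 48.7% of entries in *dbp1Δ::kanMX6* cells and 70.4% in wild type.

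*SSP2* (YOR242C, chromosome XV), whose product triggers Smk1 autophosphorylation, had few footprints for its abundant mRNA in both strains. Its mRNA was 505.3 RPKM (486 to 525) in *dbp1Δ::kanMX6* cells and 1860.7 RPKM (1807 to 1915) in wild type, the highest of the 4 genes in each strain. Its footprints were 36.4 RPKM (30.6 to 43.3) in *dbp1Δ::kanMX6* cells and 311.3 RPKM (295 to 328) in wild type. TE was accordingly low in each strain, 0.0720 in *dbp1Δ::kanMX6* cells and 0.167 in wild type, where the median entry had 0.707 and 0.746 in the same order. Only 2.33% of entries had a lower TE in *dbp1Δ::kanMX6* cells and 4.73% in wild type. Footprints were 8.55-fold lower in the deletion (7.13 to 10.3), mRNA 3.68-fold lower (3.51 to 3.86) and TE 2.32-fold lower (1.93 to 2.79). Unlike for *SPS1*, the larger share of the footprint difference lay in mRNA, with 39.3% of it in TE on the log2 scale.

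*CAK1* (YFL029C, chromosome VI), whose product is made in growing cells too, differed least between the strains. Its footprints were 75.6 RPKM (66.8 to 85.0) in *dbp1Δ::kanMX6* cells and 131.7 RPKM (121 to 143) in wild type. Its mRNA was 77.6 RPKM (70.2 to 85.4) in *dbp1Δ::kanMX6* cells and 115.3 RPKM (102 to 130) in wild type. Footprints were 1.74-fold lower in the deletion (1.51 to 2.02) and mRNA 1.49-fold lower (1.27 to 1.74). TE was 0.974 in *dbp1Δ::kanMX6* cells and 1.14 in wild type, and the interval of this 1.17-fold lower value (0.952 to 1.44) included no difference. The TE difference of *CAK1* was thus within counting error.

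**Figure D1:**
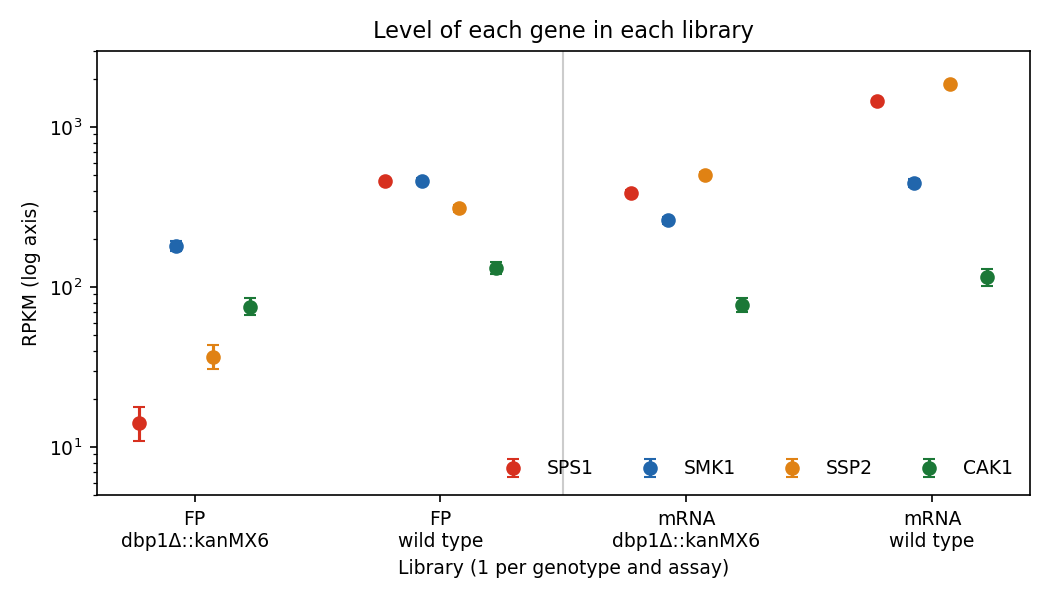
Level of *SPS1*, *SMK1*, *SSP2* and *CAK1* in each of the 4 libraries, in RPKM on a log axis, with footprint libraries (FP) on the left and mRNA libraries on the right. Points are single values and bars are 95% counting intervals. *SPS1* footprints stood at 14.1 RPKM in *dbp1Δ::kanMX6* cells and 457.7 RPKM in wild type, and the order of the 4 genes differed between the footprint libraries but not between the mRNA libraries.

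RPKM are scaled to ORF length, so the 4 genes can be compared within a library, and such ratios do not depend on how libraries are scaled to each other. The order of mRNA levels was *SSP2*, *SPS1*, *SMK1* and *CAK1* in both strains, and neighbors in that order differed by more than counting error in each. The order of footprints was *SMK1*, *CAK1*, *SSP2* and *SPS1* in *dbp1Δ::kanMX6* cells, whereas in wild type *SMK1* and *SPS1* led together, followed by *SSP2* and *CAK1*. Footprints of *SPS1* were 0.0780 of those of *SMK1* in *dbp1Δ::kanMX6* cells (0.0600 to 0.10) and 0.990 of them in wild type (0.936 to 1.05), an interval that includes equal levels. For the activator and its kinase, *SSP2* footprints per *SMK1* footprint were 0.201 in *dbp1Δ::kanMX6* cells (0.166 to 0.243) and 0.673 in wild type (0.629 to 0.720). The mRNA ratio of the same pair was 1.93 in *dbp1Δ::kanMX6* cells (1.81 to 2.06) and 4.17 in wild type (3.91 to 4.45). *SSP2* was thus lower relative to *SMK1* in the deletion at both levels. The opposite held for the second activator, since *CAK1* footprints were 0.418 of those of *SMK1* in *dbp1Δ::kanMX6* cells (0.362 to 0.481) and 0.285 in wild type (0.260 to 0.312). The corresponding mRNA ratios, 0.297 (0.265 to 0.331) and 0.258 (0.226 to 0.295), had overlapping intervals. *CAK1* footprints exceeded those of *SSP2* 2.08-fold (1.68 to 2.57) in *dbp1Δ::kanMX6* cells, while in wild type they were 0.423 of them (0.384 to 0.466).

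All 4 genes were lower in *dbp1Δ::kanMX6* cells in footprints, mRNA and TE, although the median entry had ratios of *dbp1Δ::kanMX6* to wild type of 1.27, 1.29 and 0.953. A difference of 2-fold or more was counted as past the threshold. For footprints 3 of the 4 genes were at least 2-fold lower, against 8.23% of all entries, and 0 were at least 2-fold higher, against 15.1%. For mRNA 2 of the 4, *SPS1* and *SSP2*, were at least 2-fold lower against 4.18% of entries, and 0 were higher against 16.6%. The same 2 genes were at least 2-fold lower in TE against 6.07% of entries, with 0 higher against 3.43%. The median log2 difference of the 4 genes was −2.23 for footprints, −1.33 for mRNA and −0.90 for TE, where all entries had 0.35, 0.37 and −0.07. With all differences centred on that of the median entry, *CAK1* footprints became 2.22-fold lower and *SMK1* mRNA 2.21-fold lower, both then past the threshold. At a 4-fold threshold and the deposited scaling, *SPS1* and *SSP2* were past it for footprints, *SPS1* alone for TE and none for mRNA. With centring, mRNA was 4.82-fold lower for *SPS1* and 4.76-fold lower for *SSP2*, both then past 4-fold.

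**Figure D2:**
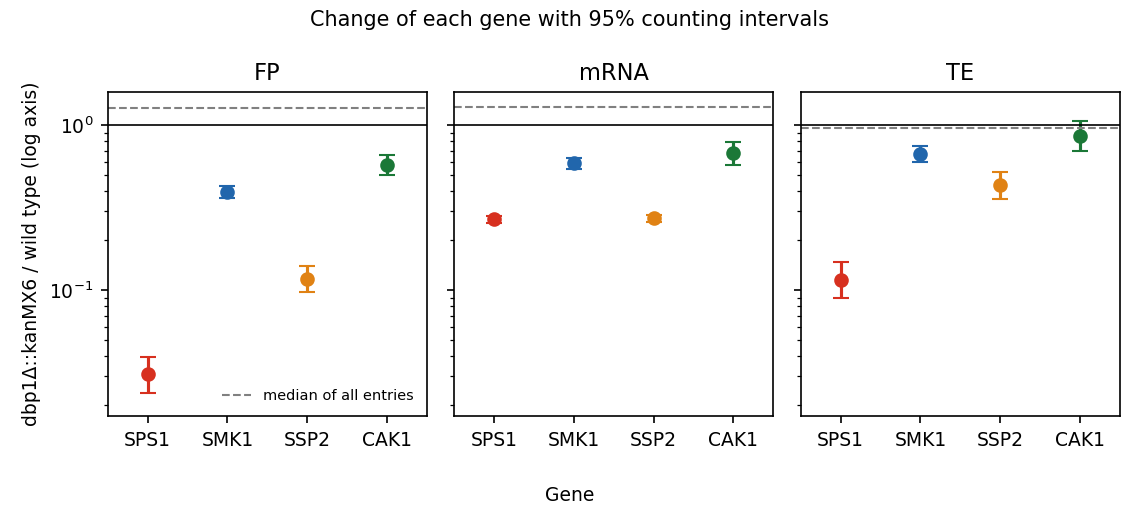
Ratio of *dbp1Δ::kanMX6* to wild type for each of the 4 genes on a log axis, in panels for footprints (FP), mRNA and TE. Points are single ratios, bars are 95% counting intervals, the solid line marks a ratio of 1 and the dashed line the median of all entries. All points lie below 1, and *SPS1* is the lowest in footprints (0.0308) and TE (0.115), while *SPS1* and *SSP2* lie together in mRNA (0.268 and 0.272).

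The 4 genes give 6 pairs, whose differences between strains were set against each other. Counting intervals excluded an equal difference for 6 of the 6 pairs in footprints, 4 in mRNA and 6 in TE. In mRNA the pair *SPS1* and *SSP2* could not be separated, with a ratio of their ratios of 0.987 (0.923 to 1.06), nor could *SMK1* and *CAK1*, at 0.870 (0.734 to 1.03). In TE these pairs did separate. The decrease in TE was 3.75-fold larger for *SPS1* than for *SSP2* (2.76 to 5.09), and 1.28-fold larger for *SMK1* than for *CAK1* (1.01 to 1.62), an interval that comes close to 1. *SPS1* stood 5.81-fold below *SMK1* in TE ratio (4.43 to 7.62) and 7.42-fold below *CAK1* (5.38 to 10.2). Between *SSP2* and *SMK1* the TE ratio of the kinase was 1.55-fold the higher (1.25 to 1.93).

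Entries were then divided by their mRNA difference, to see whether a low mRNA ratio generally came with a low TE ratio. The 229 entries with mRNA at least 2-fold lower in *dbp1Δ::kanMX6* cells and a TE value had a median log2 TE difference of −0.34, where *SPS1* had −3.12 and *SSP2* −1.22. Of these entries 53 (23.1%) had TE at least 2-fold lower too, and *SPS1* and *SSP2* were among these 53. Among the 4335 entries with mRNA within 2-fold, which include *SMK1* and *CAK1*, the median was −0.01 and 164 (3.78%) had TE at least 2-fold lower. Among the 888 with mRNA at least 2-fold higher, the median was −0.41 and 114 (12.8%) did so. The mRNA value enters both measures, so these shares are not independent of the division.

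**Figure D3:**
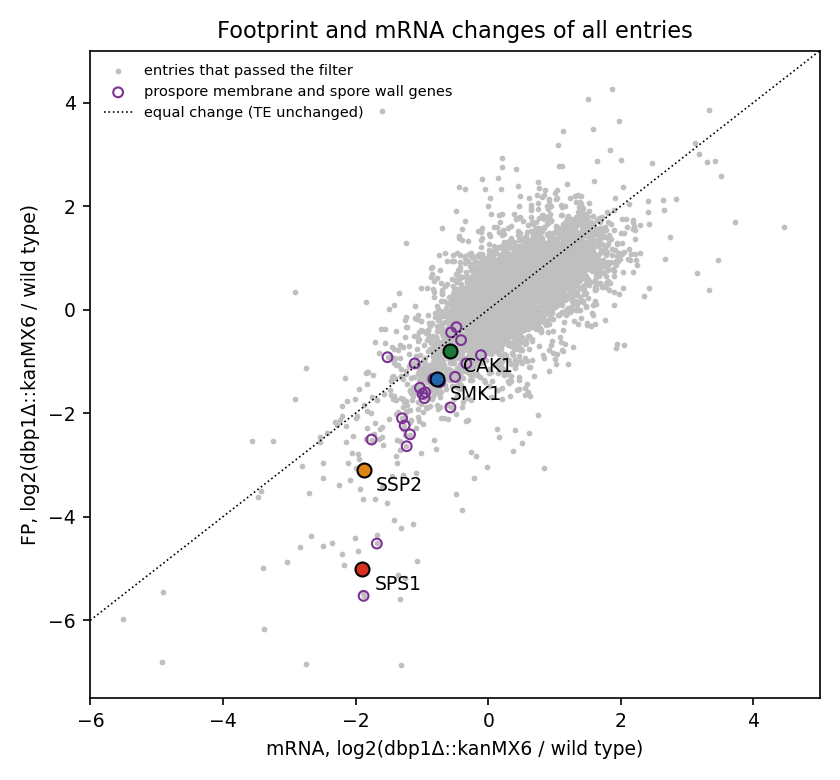
Log2 ratio of *dbp1Δ::kanMX6* to wild type for footprints (vertical) against mRNA (horizontal), with each entry that passed the filter in gray, 22 prospore membrane and spore wall genes as open circles and the 4 kinase and activator genes as filled circles. Points below the dotted line have lower TE in *dbp1Δ::kanMX6* cells. *SPS1* (−1.90 for mRNA, −5.02 for footprints) and *SSP2* (−1.88, −3.10) share a position on the horizontal axis and differ on the vertical one.

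Genes that act with the kinases were examined in the same way. Of 9 partners, 3 had footprints at least 2-fold lower in *dbp1Δ::kanMX6* cells (*ISC10*, *GSC2* and *NDT80*), against 8.23% of all entries. For mRNA and TE 1 was at least 2-fold lower (*ISC10* in both cases), against 4.18% and 6.07% of entries. None of the 9 was at least 2-fold higher, against 15.1%, 16.6% and 3.43% of entries for footprints, mRNA and TE. *ISC10* encodes an inhibitor of Smk1 and had 114.0 RPKM of footprints in *dbp1Δ::kanMX6* cells against 894.0 RPKM in wild type. Its mRNA was 208.6 RPKM in *dbp1Δ::kanMX6* cells and 541.8 RPKM in wild type. The footprints of this inhibitor were thus 7.84-fold lower (6.97 to 8.87), more than those of *SMK1*, with mRNA 2.60-fold lower (2.36 to 2.86) and TE 3.02-fold lower (2.60 to 3.51). *AMA1*, which encodes a meiotic activator of the anaphase-promoting complex that acts with Smk1, went the other way in TE, at 0.298 in *dbp1Δ::kanMX6* cells and 0.248 in wild type, 1.20-fold higher (1.10 to 1.32). Its mRNA was 525.3 RPKM in *dbp1Δ::kanMX6* cells and 827.5 RPKM in wild type, 1.58-fold lower (1.51 to 1.65).

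Partners of Sps1 differed less than *SPS1*. *SPO77*, whose product acts with Sps1 in membrane closure, had 73.9 RPKM of footprints in *dbp1Δ::kanMX6* cells and 123.4 RPKM in wild type, with 158.9 and 151.3 RPKM of mRNA in the same order, so that TE was 1.75-fold lower (1.48 to 2.07). *GSC2*, a glucan synthase gene, had 233.2 RPKM of footprints in *dbp1Δ::kanMX6* cells and 548.8 RPKM in wild type, 2.35-fold lower (2.27 to 2.44). Footprints of *CHS3*, a chitin synthase gene, were 94.4 RPKM in *dbp1Δ::kanMX6* cells and 122.6 RPKM in wild type, 1.30-fold lower (1.20 to 1.40). Both enzymes are placed at the prospore membrane with the help of Sps1. *BMH1* and *BMH2*, genes of phosphoprotein-binding adaptors, went opposite ways, with footprints 1.46-fold lower (1.40 to 1.52) and 1.34-fold higher (1.30 to 1.38). *NDT80* had 447.0 RPKM of footprints in *dbp1Δ::kanMX6* cells and 1007.6 RPKM in wild type, 2.25-fold lower (2.16 to 2.35), while its mRNA was 1.37-fold lower (1.31 to 1.44). Footprints of the early kinase gene *IME2* were 1973.8 RPKM in *dbp1Δ::kanMX6* cells and 1600.4 RPKM in wild type, a ratio of 1.23 that is under the 1.27 of the median entry and falls below 1 when centred on it.

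The 22 listed genes of the prospore membrane and spore wall act at the step that the kinases serve. All 22 passed the filter, and each was lower in *dbp1Δ::kanMX6* cells in both footprints and mRNA. Of them 17 were at least 2-fold lower in footprints, 10 in mRNA and 5 in TE, against 8.23%, 4.18% and 6.07% of all entries. Their median log2 differences were −1.56, −0.97 and −0.73 for footprints, mRNA and TE. *SPS1* and *SSP2* lay further from 0 than these medians in each measure. *SMK1* (−1.35, −0.77 and −0.58) and *CAK1* (−0.80, −0.57 and −0.23) lay closer to 0 in each. TE was lower in 18 of the 22, and 18 also lay below the log2 TE difference of −0.07 of the median entry. None of the 22 was at least 2-fold higher in any measure, against 15.1%, 16.6% and 3.43% of all entries for footprints, mRNA and TE. *SPO20*, a SNARE gene needed to form the membrane, had 7.7 RPKM of footprints in *dbp1Δ::kanMX6* cells and 357.0 RPKM in wild type. The mutant value is close to the 6.9 RPKM of the deleted *DBP1* ORF in that library, and how much of it is background was not tested. TE of *SPO20* was 0.0343 in *dbp1Δ::kanMX6* cells and 0.433 in wild type, 12.6-fold lower (8.74 to 18.2), while its mRNA was 3.67-fold lower. *GIP1*, which encodes a regulatory subunit of the Glc7 phosphatase, had a TE of 0.0755 in *dbp1Δ::kanMX6* cells and 0.539 in wild type, 7.14-fold lower (6.10 to 8.37). After these genes came *SMA2*, *DIT1* and *OSW1*, at 2.64-fold, 2.50-fold and 2.35-fold lower TE, close to *SSP2*. *SPS4* had higher TE in *dbp1Δ::kanMX6* cells, 0.669 against 0.443, with mRNA 2.86-fold lower. A low TE ratio of the size seen for *SPS1* was therefore found in 2 of these 22 genes, *SPO20* and *GIP1*.

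**Figure D4:**
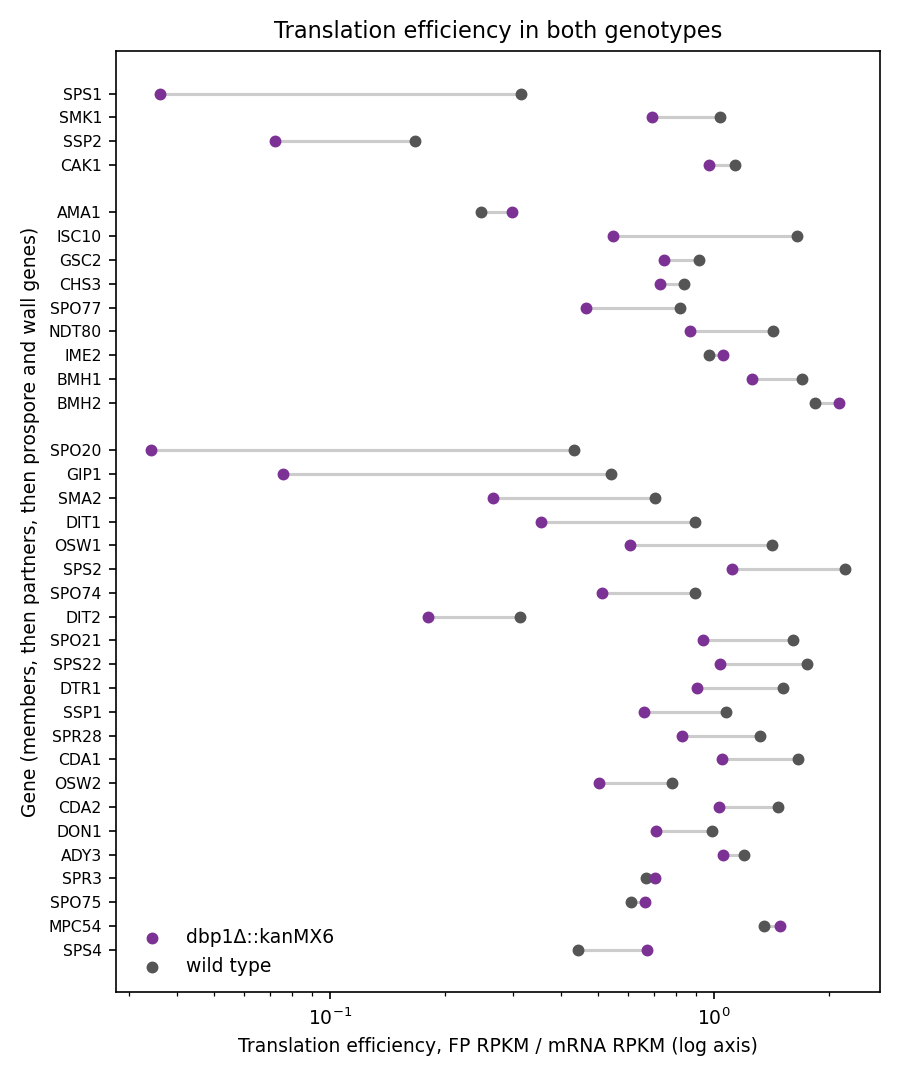
TE on a log axis in *dbp1Δ::kanMX6* cells (purple) and wild type (gray) for the 4 kinase and activator genes, their 9 partners and the 22 prospore membrane and spore wall genes. Each gray bar joins the values of 1 gene. *SPS1*, *SPO20* and *GIP1* have the longest bars, with TE of 0.0362, 0.0343 and 0.0755 in *dbp1Δ::kanMX6* cells, and *SSP2* is low in both strains.

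Kinases related to Smk1 and Sps1 that serve vegetative functions were examined too. Footprints of the MAP kinases *FUS3*, *KSS1*, *HOG1* and *SLT2* and the pseudokinase *KDX1* ranged between 5.4 and 141.7 RPKM in *dbp1Δ::kanMX6* cells and between 3.2 and 123.1 RPKM in wild type, so that *SMK1* had the most footprints per length of this family in each strain. None of these 5 reached 2-fold in footprints, against 8.23% of all entries lower and 15.1% higher. None did in TE, against 6.07% lower and 3.43% higher. Their median log2 footprint difference was 0.22, near the 0.35 of all entries. In mRNA *KSS1* alone was past 2-fold, at 48.2 RPKM in *dbp1Δ::kanMX6* cells and 18.7 RPKM in wild type. Of all entries, 16.6% were at least 2-fold higher in mRNA. Of the Ste20-family relatives of *SPS1*, *STE20* did not pass the filter, and *CLA4*, *SKM1* and *KIC1* had log2 footprint differences of 0.03 to 0.14, all under that of the median entry and so below 0 when centred on it. The highest of them, *KIC1*, had 45.8 RPKM of footprints in *dbp1Δ::kanMX6* cells and 42.4 RPKM in wild type, so that *SPS1* exceeded all 4 relatives in wild type but stood below *KIC1* in the deletion. Among the other kinases that Cak1 activates, *CDC28*, *KIN28*, *SGV1* and *CTK1*, 0 of 4 were past 2-fold in footprints or mRNA. The shares of all entries were 8.23% lower and 15.1% higher for footprints, and 4.18% and 16.6% for mRNA. In lists this small, such counts do not set these kinases apart from all entries. TE was 2.04-fold lower for *SGV1* (1.58 to 2.64), a larger difference than that of *CAK1*.

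The ORFs on either side of each gene in the reference gene order were examined next, because the handling of strand in the counts is not given. None of the 8 neighbors overlaps its gene in the reference. *SPS2*, a spore wall gene beside *SPS1* on the same strand, was the only one of the 8 that was lower in both assays, with 1906.1 RPKM of footprints in *dbp1Δ::kanMX6* cells and 9003.2 RPKM in wild type, 4.72-fold lower (4.62 to 4.83). Its mRNA was 1706.7 RPKM in *dbp1Δ::kanMX6* cells and 4099.9 RPKM in wild type, 2.40-fold lower, and its TE was 1.97-fold lower (1.90 to 2.03), a smaller difference than that of *SPS1*. *AGE1*, on the other side of *SPS1*, had 8.0 RPKM of footprints in *dbp1Δ::kanMX6* cells and 3.0 RPKM in wild type, and 25.9 and 25.4 RPKM of mRNA in the same order. The neighbors of *SSP2* had higher mRNA in the deletion, 2.12-fold for *MET7* (1.67 to 2.70), and 32.3 RPKM in *dbp1Δ::kanMX6* cells against 10.6 RPKM in wild type for *PUS7*. Those of *CAK1* had higher footprints, 1.95-fold for *AGX1* (1.77 to 2.15), and 25.6 RPKM in *dbp1Δ::kanMX6* cells against 12.8 RPKM in wild type for *CAF16*. Beside *SMK1*, mRNA was 34.8 RPKM in *dbp1Δ::kanMX6* cells and 18.3 RPKM in wild type for YPR053C, and 32.9 and 23.7 RPKM for *SEC8*. In wild type the neighbors had less mRNA than the gene they flank, except for *SPS2* beside *SPS1* and for *AGX1*, at 151.3 RPKM beside the 115.3 RPKM of *CAK1*.

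Entries most like each gene were found by the distance between their profiles over the 4 libraries, each profile being log2 RPKM less its own mean, among 5423 entries with at least 1 RPKM in every library. With 4 points a profile, this is a description only. The profile also sets the TE of an entry in each strain, so TE values like those of the matched gene follow from the choice. The nearest to *SPS1* were YMR085W (distance 0.26), *GAT3* (0.34), which encodes a protein with a GATA-type zinc finger, and YDR326C (0.39). YDR326C had 2.3 RPKM of footprints in *dbp1Δ::kanMX6* cells and 80.4 RPKM in wild type, with TE 13.6-fold lower (9.55 to 19.5). The 2.3 RPKM, an inferred 32 reads, is under the 6.9 RPKM of the deleted *DBP1* ORF, which is not a floor for every ORF. How much of the 2.3 RPKM is background was not tested. *GAT3* rested on an inferred 3 footprint reads in *dbp1Δ::kanMX6* cells and YMR085W on 7, so their ratios and distances are imprecise. The nearest to *SSP2* was *ECM23* (0.16), another gene of the GATA family, with mRNA of 276.5 RPKM in *dbp1Δ::kanMX6* cells and 1072.5 RPKM in wild type. Its TE was 0.0825 in *dbp1Δ::kanMX6* cells and 0.158 in wild type, near that of *SSP2* because the match was made on such profiles. YGL230C (0.39) and YFL012W (0.42) came next. Profiles close to that of *SMK1* were those of *NNT1* (0.11), which encodes a protein methyltransferase, YLR030W (0.12) and *GTS1* (0.13). *CAK1* had the closest matches of the 4 genes, YHR138C (0.03), the cell cycle regulator gene *SPO12* (0.10) and YPR027C (0.13). Distances for *SPS1* and *SSP2* were thus larger than those for *SMK1* and *CAK1* at the third match.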

How the data were processed

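The authors aligned footprint and mRNA reads to the SK1 genome and deposited RPKM, the reads of an ORF over its length in kilobases and over the mapped reads of the library. The submitters' processing notes name CASAVA, bcl2fastq 2.17 and Bowtie2. Settings, annotation, strand and the handling of reads with several matches are not given in the sources used here. The labels give 100 µM cycloheximide, whereas the methods give mass per volume.

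TE was FP RPKM over mRNA RPKM, as in the study. Differences were plain RPKM ratios with a pseudocount of 0, over entries averaging 10 RPKM or more and above 0 in the libraries used. With 1 library per group no test was made. Depth was inferred from the RPKM steps of ORFs under 500 bp and under 20 RPKM. At the depths taken, 76.6% to 83.4% of these values lay within 0.1 of a whole read, against medians of 15.9% to 17.7% at other depths. Intervals at 95% are exact Poisson (levels), exact conditional Clopper-Pearson (ratios of RPKM) or log-normal (TE and ratios of ratios). They cover counting error only, and as the labels name no molecular identifiers, reads are not counts of independent molecules. The floor was 3 reads. Lengths, names and gene order came from RefSeq R64, which matched 5768 entries as protein-coding genes. No coordinates are given, since the build differs.

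The 4 genes and all lists were chosen with earlier results of these data known. Genes named are these 4, *DBP1*, *MRP51*, the listed genes, marker genes, the 3 nearest profiles per gene and the adjoining ORFs. Alternatives were pseudocounts of 1 and 0.1, centring on the median entry, trimmed-mean scaling (trimming 30% of the log ratios and 5% of the levels per end), scaling without the 50 highest and mitochondrial entries, no filter or one at 50 RPKM, and a 4-fold threshold. Scripts were tested on simulated data. Python 3.11.15, numpy 2.4.6, scipy 1.17.1 and matplotlib 3.10.9 were used.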

Additional observations from a re-analysis of the deposited data

How the results depend on the processing

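No paired analysis was possible because each genotype has 1 library per assay. Of 60 values of the 4 genes under alternatives, 17 left their counting interval and 0 changed direction. Centring on the median entry lowered all log2 ratios by 0.35 for footprints and 0.37 for mRNA and raised TE by 0.07. Footprint ratios of *dbp1Δ::kanMX6* to wild type were then 0.307 for *SMK1*, 0.0919 for *SSP2* and 0.451 for *CAK1*, and with trimmed-mean scaling 0.307, 0.0918 and 0.451. The mRNA ratios with centring were 0.207 for *SPS1*, 0.453 for *SMK1*, 0.210 for *SSP2* and 0.521 for *CAK1*, and with trimmed-mean scaling 0.208, 0.455, 0.211 and 0.523. Without the 50 highest and mitochondrial entries they were 0.239 for *SPS1*, 0.523 for *SMK1* and 0.242 for *SSP2*. Centring and trimmed-mean scaling brought the genes at least 2-fold lower to 4 for footprints and 3 for mRNA. At 4-fold and the deposited scaling, 0 were lower in mRNA and 1 in TE.

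Over all entries, centring gave 697 lower and 347 higher for footprints and 468 lower and 394 higher for mRNA, and trimmed-mean scaling gave 699, 344, 463 and 402. At 4-fold, 117 were lower and 66 higher for footprints, 45 and 57 for mRNA, and 58 and 20 for TE. With a mean of at least 50 RPKM fewer entries remained, of which 375 were higher for footprints, 354 for mRNA and 91 for TE, and 156 were lower for TE. At that filter, 0.328% of entries had a larger footprint decrease than *SPS1*, 6.66% than *SMK1*, 1.21% than *SSP2* and 14.0% than *CAK1*, and 1.37%, 9.55% and 1.47% had a larger mRNA decrease than *SPS1*, *SMK1* and *SSP2*. Without a filter the mRNA shares were 1.35% for *SPS1* and 1.40% for *SSP2*. The share with a lower TE at 50 RPKM was 36.8% for *SMK1* and 58.5% for *CAK1* in *dbp1Δ::kanMX6* cells. In wild type it was 8.11% for *SPS1*, 60.6% for *SMK1*, 3.35% for *SSP2* and 67.4% for *CAK1*, and 5.28% for *SSP2* without a filter. The 3 nearest entries of each gene were shared under centring, as its construction requires. With 1 library per group, spread between cultures is unknown, and *SPS1* footprints in *dbp1Δ::kanMX6* cells rest on an inferred 68 reads.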
